A study of Homo sapiens with 5 samples.

Results

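FGFR3, ERBB2, HRAS, PIK3CA, TSC1, CDKN2A, RB1, ARID1A and TERT are 9 genes recurrently altered in bladder carcinoma, the tumour type from which the EJ30 cell line was derived. They were taken by name from the 20033 protein-coding gene records of GENCODE 44 on hg38, and every called interval that overlapped a gene record or lay within 10 kb of its 5' end was assigned to that gene. By this rule the 9 genes held 22 of the 23905 replication origins called by ini-seq 2 after 3 h and 10 of the 10181 called after 15 min. They also held 100 of the 147529 SNS-seq peaks from strands of 0.5 to 2 kb and 103 of the 184832 from strands of 2 to 4 kb, called small and large strands here.

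Both ini-seq 2 reactions used late G1 nuclei of mimosine-arrested EJ30 cells, in which replication was started in vitro with a cytosolic HeLa extract and Br-dUTP. Copied DNA became heavy on a single strand (HL) and uncopied DNA stayed light on both (LL). Each 3-hour origin carries an efficiency, HL/(HL + LL), that starts at 0.8 by construction. It was computed from read counts scaled to the total reads of each library. SNS-seq, in contrast, isolated short nascent strands from EJ30 cells themselves, in the pair of size fractions named above, and the peaks were called against EJ30 genomic DNA, a library not analysed here. Each condition is 1 list, pooled from 2 biological replicates at 3 h and with the number of replicates not given at 15 min, so no spread between replicates and no test were available and all comparisons below are descriptions. The title of the 15-minute sample also holds the word control, and the sample was taken as the 15-minute reaction of the authors. The read depth behind an interval is unknown, and the copy number and sequence of these genes in EJ30 were not analysed here.

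Replication of human DNA starts at many sites per chromosome. Licensed sites greatly outnumber those that fire, and efficient sites are often found near active, CpG-rich promoters. The 9 genes belong to the pathways by which bladder tumours escape growth control: receptor and RAS signalling, the PI3K and mTOR branch, the G1/S checkpoint, chromatin remodelling and telomere maintenance. What the lists show for them is whether initiation was called at their starts, in their bodies or in their flanks. The lists also give each origin of the longer reaction an efficiency, which is a ratio of scaled read counts. It is not the share of DNA copied at the site. A call in the shorter reaction shows that a site had passed the calling limits by then, not when it fired.

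All 9 genes held an origin at 3 h, against 69% of protein-coding genes, and 8 of 9 held an origin at 15 min, against 49.9%. TSC1 was the exception at 15 min. Each gene also had SNS-seq peaks of both fractions, which 87.2% of protein-coding genes had for the small strands and 87% for the large. The rule counts whole gene records, so a longer gene has more sequence in which to hold a call. With only the 10 kb on either side of the 5' end, 8 of 9 genes had a 3-hour origin, against 64.1%. A 15-minute origin was then present at 7 of 9, for which the share of all genes was not computed. Of the 22 origins, 8 contained the canonical start of the member itself, 4 contained the start of another gene next to or inside it, and 10 contained no canonical start. Efficiency ran from 0.878 to 0.974 (median 0.9245) at the members' own starts, from 0.885 to 0.947 (median 0.902) at the starts of other genes, and from 0.806 to 0.863 (median 0.827) elsewhere. Among these 22, the origins without a canonical start did not overlap with either of the other sets in efficiency, but such a split was not general. Over all 9331 origins at canonical coding starts the lower quartile was 0.880. Of the 28 canonical start origins at the other bladder cancer genes counted below, those of CDK4 (0.820) and AKT1 (0.852) lay between 0.806 and 0.863. One of the 10 origins without a canonical start, in the body of FGFR3, contained 4 other annotated FGFR3 transcript starts.

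Selected sequences show what these sites are made of. The central 100 bases of 4 high-efficiency origins, of a medium one and of 3 low ones are given on the strand of the gene, with each CpG dinucleotide in capitals, because CpG content differed between most efficient and most weak sites. Windows that touch a UTR record were passed over. They read, on hg38, as follows.
PIK3CA (high, chr3:179148701-179148800, plus strand, intron): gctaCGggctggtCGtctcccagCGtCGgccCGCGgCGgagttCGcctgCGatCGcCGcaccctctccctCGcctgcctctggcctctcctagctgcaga
ARID1A (high, chr1:26696601-26696700, plus strand, coding sequence): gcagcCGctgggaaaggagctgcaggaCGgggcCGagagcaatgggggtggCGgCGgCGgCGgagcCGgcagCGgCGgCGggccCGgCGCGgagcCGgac
FGFR3 start (high, chr4:1794001-1794100, plus strand, coding sequence): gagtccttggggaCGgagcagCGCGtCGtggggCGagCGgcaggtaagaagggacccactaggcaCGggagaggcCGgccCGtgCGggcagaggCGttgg
ERBB2 start (high, chr17:39700351-39700450, plus strand, intron): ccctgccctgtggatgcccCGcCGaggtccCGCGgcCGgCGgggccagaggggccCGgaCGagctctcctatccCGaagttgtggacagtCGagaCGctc
CDKN2A (medium, chr9:21995601-21995700, minus strand, upstream of the gene record): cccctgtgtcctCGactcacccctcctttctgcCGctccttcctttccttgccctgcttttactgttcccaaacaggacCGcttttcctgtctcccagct
FGFR3 body (low, chr4:1802301-1802400, plus strand, intron): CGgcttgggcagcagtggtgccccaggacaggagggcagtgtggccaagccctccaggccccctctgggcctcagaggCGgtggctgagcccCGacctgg
ERBB2 intron (low, chr17:39705351-39705450, plus strand): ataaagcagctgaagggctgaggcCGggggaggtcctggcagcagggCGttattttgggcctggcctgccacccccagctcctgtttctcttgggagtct
RB1 intron (low, chr13:48317651-48317750, plus strand): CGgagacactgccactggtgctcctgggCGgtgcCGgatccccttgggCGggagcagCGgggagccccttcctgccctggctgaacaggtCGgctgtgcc

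The 4 high-efficiency windows held 11 to 15 CpG: 12 at PIK3CA, 15 at ARID1A and 11 each at FGFR3 and ERBB2. The CDKN2A window held 3, and the low windows held 3 in the FGFR3 body, 2 in the ERBB2 intron and 6 in the RB1 intron. Over all 3-hour origins, the same central window held a median of 12 CpG in the high class, 7 in the medium class and 3 in the low class. Among the windows not shown, the HRAS start held 0 CpG and each low origin of TERT held 8. The high origin over the start of RCBTB2, inside the RB1 record, also held 8. The medium origins over the starts of TSC1 and LRRC56 held 12 and 10. Spearman's rho between the CpG count of the central window and efficiency was 0.59 over the 22 origins. GC content separated the windows above less: the low FGFR3 window was 73% GC, as was the high ERBB2 window, and the CDKN2A window was 57% GC.

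**Figure D1:**
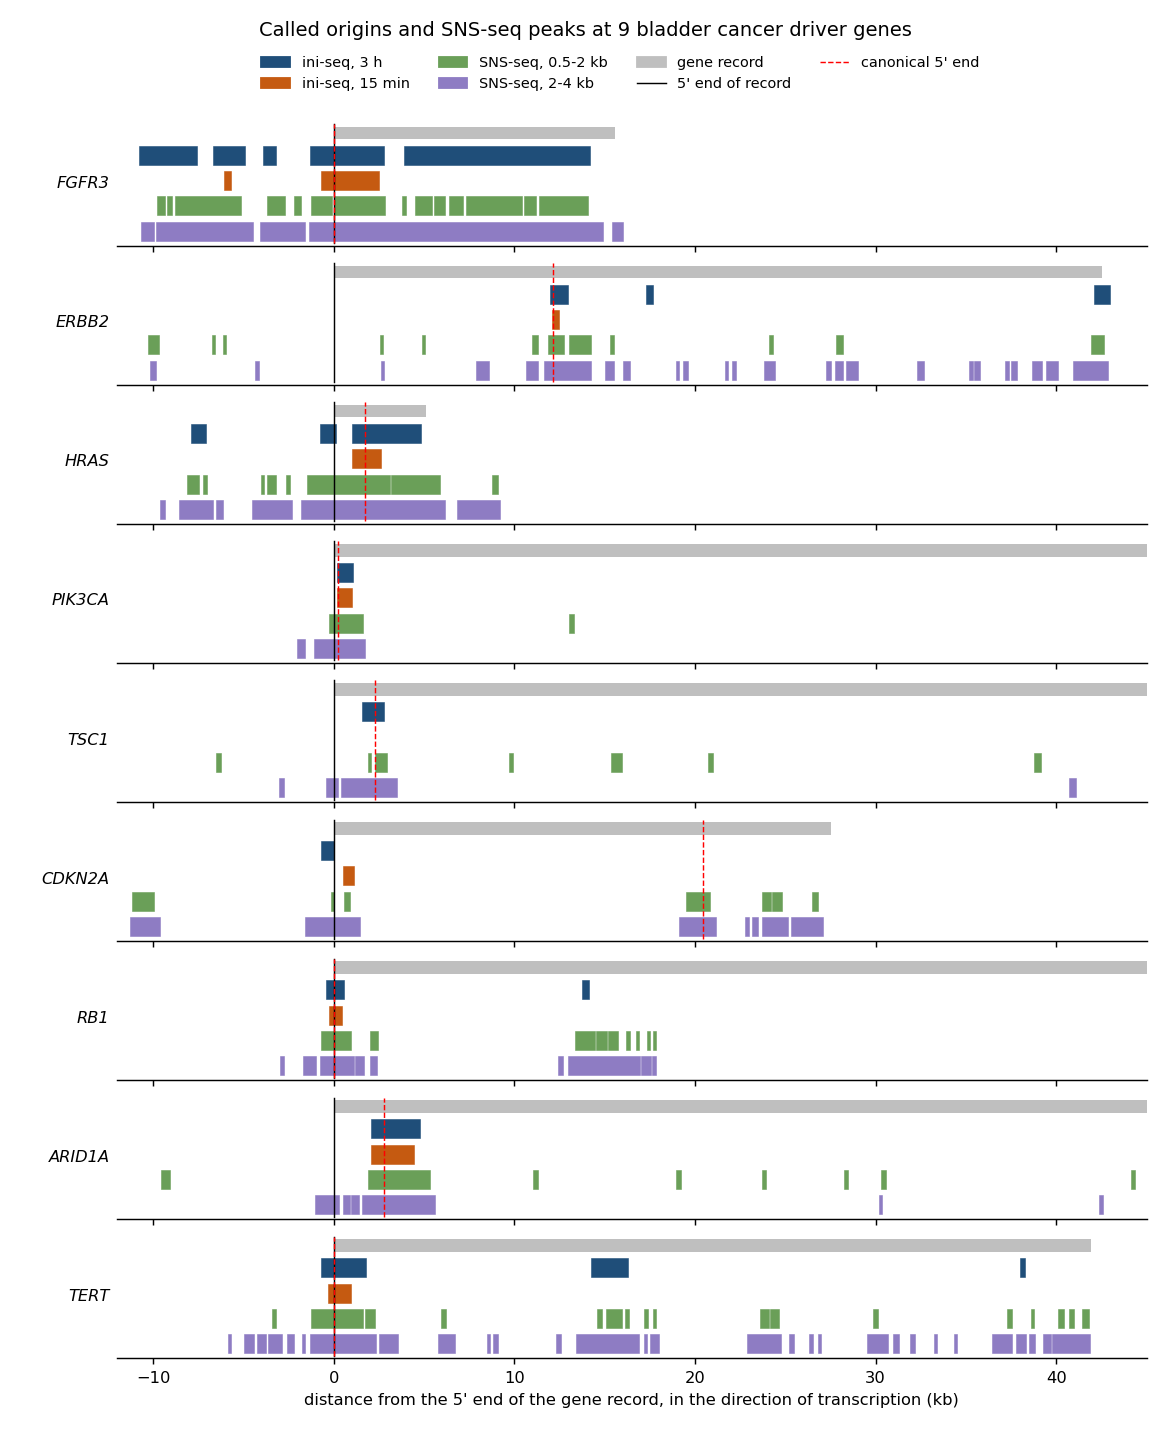
Map of the called intervals at each of the 9 genes, with distance from the 5' end of the gene record in kb on the horizontal axis, in the direction of transcription; rows from top to bottom are the gene record (grey), 3-hour origins, 15-minute origins and the small (0.5 to 2 kb) and large (2 to 4 kb) strand peaks of SNS-seq. The solid line marks the 5' end of the record and the dashed line the canonical 5' end; intervals beyond 45 kb, among them 2 origins of RB1, are not drawn.

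Where a gene starts depends on the annotation. The 5' end of a gene record is that of its outermost transcript, whereas the canonical transcript is the one Ensembl takes as representative. A 3-hour origin contained the 5' end of the record in 5 of 9 genes (FGFR3, HRAS, CDKN2A, RB1 and TERT), against 42.5% of protein-coding genes. At the canonical 5' end the count was 8 of 9, against 50.9%, and at 15 min it was 7 of 9, against 34.2%. In ERBB2 the canonical start lay 12150 bp inside the record, in ARID1A 2779 bp, in TSC1 2258 bp and in PIK3CA 243 bp, and in each of these the origin lay over the canonical start. CDKN2A was the reverse, with an origin at the record's 5' end and none at the canonical start 20444 bp further in. Small-strand SNS-seq peaks covered the canonical 5' end in 8 of 9 genes, against 52.7%, and large-strand peaks in 9 of 9, against 67.2%.

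FGFR3, a receptor tyrosine kinase for fibroblast growth factors, had the most origins of the 9 genes, with 5, and 95.3% of protein-coding genes had fewer. They covered 75.5% of its counted region of 25580 bp. The origin over its start (chr4:1792001-1796100) ran over 4100 bp, from 1292 bp upstream to 2807 bp downstream of the 5' end, and had an efficiency of 0.913. An origin of 10300 bp (chr4:1797201-1807500) covered most of the rest of the gene, longer than 99.9% of 3-hour origins, yet with an efficiency of only 0.826. The 3 origins upstream of the gene had efficiencies of 0.806, 0.857 and 0.863.

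At 15 min only 2 of the 5 FGFR3 sites were called. The start had an origin of 3200 bp with a Z-score of 0.03, near the middle of the 15-minute list, in which Z-scores have mean 0. Its length exceeded that of 99.8% of 15-minute origins. The other, 400 bp long and inside the upstream origin of 0.857, had a Z-score of -1.38, above only 10.2% of the list. SNS-seq gave FGFR3 a near-continuous cover in the large strands, with 95.3% of the region inside peaks and 1 peak of 16310 bp from 1389 bp upstream to 14920 bp downstream of the 5' end. Small-strand peaks numbered 14 and covered 73.5%.

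ERBB2, which encodes the receptor HER2, held 3 origins, none within 10 kb of the 5' end of its record. The site at the canonical start (chr17:39699901-39700900) had an efficiency of 0.931 and was called at 15 min over 400 bp, with a Z-score of -0.17. An intronic origin of 400 bp (chr17:39705201-39705600), 4.3 kb downstream of that site, had an efficiency of 0.819 and was the only one of the 22 origins with no SNS-seq peak of either fraction. The last (chr17:39730001-39730900), at the 3' end of the record, contained the start of MIEN1, had an efficiency of 0.909 and was not called at 15 min. ERBB2 had 0.76% of its region called at that time and 3.48% at 3 h.

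HRAS, a small GTPase that relays receptor signals, is the shortest of the 9 genes, at 5080 bp. A 3-hour origin of 3800 bp (chr11:532501-536300) covered 724 bp upstream and 3075 bp downstream of the canonical start, nearly the whole of that transcript. Its efficiency of 0.902 put it in the medium class, just under the limit of 0.9065. Its 15-minute origin had the highest Z-score among the members, 1.34, above 90.4% of that list. A neighbouring origin (chr11:537201-538100) contained the 5' end of the HRAS record and the start of LRRC56, with an efficiency of 0.885, and the last, of 0.839, lay in coding sequence of LRRC56. Neither was called at 15 min.

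PIK3CA, the catalytic subunit p110-alpha of PI3K, was the opposite in layout. It had 1 origin in a region of 101980 bp, which covered 0.88% of it, and the nearest other 3-hour origin was 76.2 kb away. That origin (chr3:179148301-179149200) began 187 bp inside the record, contained the canonical start and had an efficiency of 0.964, above 94.7% of all 3-hour origins. It was called at 15 min over 800 of its 900 bp, with a Z-score of 0.53. SNS-seq placed a small-strand peak of 1866 bp and a large-strand peak of 2850 bp over it, and 3 small-strand and 1 large-strand peaks in the rest of the region.

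TSC1 encodes hamartin, which with TSC2 restrains mTOR signalling. Its only origin (chr9:132944101-132945300) extended 684 bp upstream and 515 bp downstream of the canonical start and had an efficiency of 0.878, the lowest of the 8 start origins. It was also the only start origin without a call at 15 min. Among all protein-coding genes, 3820 of the 10192 with an origin over the canonical 5' end had none there at 15 min. A large-strand peak of 3090 bp covered the TSC1 start, whereas small-strand peaks of 651 and 176 bp lay on either side of it without covering it.

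CDKN2A encodes the G1/S inhibitor p16INK4a and the protein p14ARF from separate promoters. Its 3-hour origin (chr9:21995301-21996000) lay upstream of the gene, met the 5' end of the record with its last base only and had an efficiency of 0.895. It contained the start of a lncRNA on the opposite strand. It stood alone: the nearest other 3-hour origin was 435.6 kb away. At 15 min the call lay from 501 to 1100 bp inside the record (chr9:21994201-21994800, Z-score -0.68), 500 bp away from the 3-hour origin. It contained the starts of 2 other CDKN2A transcripts, together with coding sequence of the gene. A 15-minute origin with no 3-hour origin over it was uncommon, at 4.89% of the 15-minute list, and a 3076 bp large-strand SNS-seq peak spanned both positions. Over the p16 start, where ini-seq 2 called nothing at either time, SNS-seq had a small-strand peak of 1338 bp and a large-strand peak of 2041 bp.

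RB1, the retinoblastoma protein that holds back E2F until S phase, held 4 origins in a record of 295693 bp. The origin at its start (chr13:48303301-48304300) also contained the start of the divergent transcript RB1-DT, had an efficiency of 0.918 and was called at 15 min with a Z-score of -0.16. The most efficient, 0.947 (chr13:48532601-48533500), began 228857 bp into the record but beyond the end of the canonical transcript, over the start of RCBTB2, and had a Z-score of -0.60 at 15 min. Inside introns, 2 origins of 400 bp each had efficiencies of 0.836 and 0.828 and no 15-minute call.

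The intronic RB1 origin of 0.836 (chr13:48317501-48317900) lay in PPP1R26P1, a processed pseudogene on the minus strand (chr13:48316863-48320475). That record had 4 small-strand SNS-seq peaks and 1 large-strand peak of 3978 bp, the longest SNS-seq peak of RB1. A pseudogene shares sequence with its parent gene, and only reads with a unique alignment had been kept.

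ARID1A, a DNA-binding subunit of the SWI/SNF remodelling complex, had the most efficient origin of the 22. It measured 2700 bp (chr1:26695301-26698000), had an efficiency of 0.974, above 97.7% of all 3-hour origins, and was the only origin in a region of 98869 bp. The 15-minute call was nearly as wide, at 2400 bp, with a Z-score of 0.74. The origin covered 714 bp upstream and 1985 bp downstream of the canonical start, and the nearest other 3-hour origin was 73.8 kb away.

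TERT, the catalytic subunit of telomerase, held 3 origins. The site at its start (chr5:1293301-1295800) was 2500 bp long, with an efficiency of 0.953, and was called at 15 min over 1300 bp with a Z-score of -0.11. Downstream, an origin of 2000 bp had an efficiency of 0.807 and an intronic origin of 300 bp, the shortest length in the list, had 0.813. Neither was called at 15 min. TERT had 17 small-strand and 29 large-strand SNS-seq peaks, the most of the 9 genes in the large strands.

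**Figure D2:**
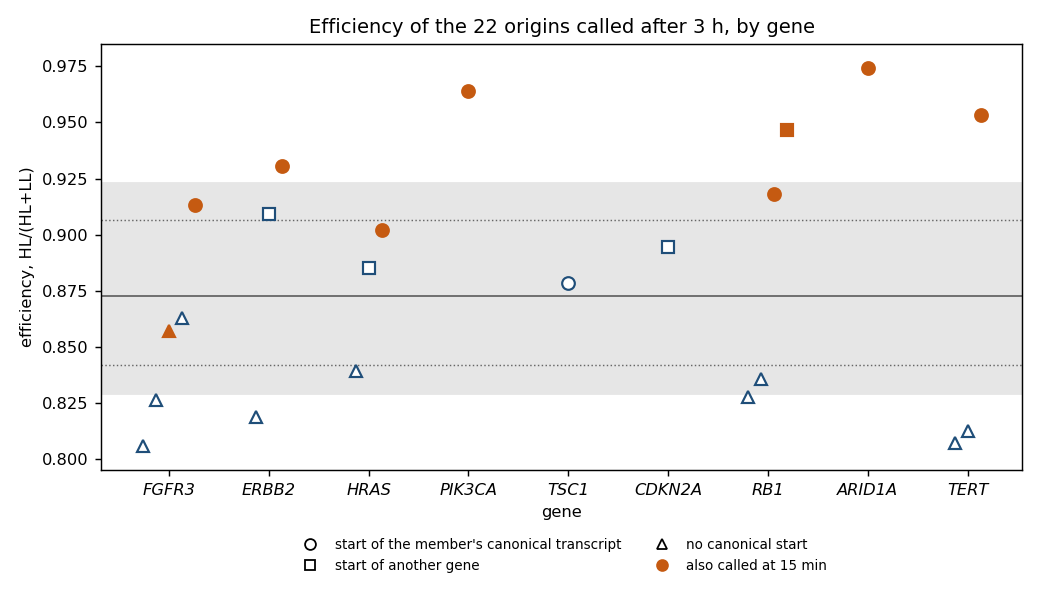
Efficiency after 3 h of each of the 22 origins, by gene; marker shape gives the place of the origin and filled markers were also called at 15 min. The solid line and grey band are the median and quartiles of all 23905 origins (0.873, 0.829 and 0.923), and dotted lines are the class limits (0.842 and 0.9065). The 8 origins below the lower limit contain no canonical start.

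Set side by side, the start origins ranked in efficiency as ARID1A (0.974), PIK3CA (0.964), TERT (0.953), ERBB2 (0.931), RB1 (0.918), FGFR3 (0.913), HRAS (0.902) and TSC1 (0.878). With no replicate values, neighbours in this order cannot be said to differ. The 22 efficiencies had a median of 0.882, near the 0.873 of all origins, and fell into 8 high, 6 medium and 8 low, where the classes split the whole list into 3 equal parts by efficiency. The high share of 36.4% (exact 95% interval 17.2 to 59.3%, counting error only) compares with 33.3% of all origins. Counting only origins over a canonical coding start, the members' 11 (8 at their own starts and those over MIEN1, LRRC56 and RCBTB2) had a median of 0.9182 with 72.7% in the high class. All 9331 such origins had a median of 0.9175 with 58.4% in the high class.

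The calls at 15 min followed the class. Of the 22 origins, 9 were also called at 15 min, 40.9% (exact 95% interval 20.7 to 63.6%, counting error only), against 40.1% of all 3-hour origins. This interval and that of the high share treat the 22 origins as independent, although 5 lie at FGFR3 and 4 at RB1. The comparison depended on the overlap asked for: with at least 0.5 of the origin covered the shares were 27.3% and 29.8%, and with a 15-minute origin within 5 kb they were 68.2% and 48.3%. The 9 were 7 of the 8 high origins, 2 of the 6 medium ones and 0 of the 8 low ones. Over the whole list the shares were 84.3%, 31.7% and 4.55%. The high origin not called at 15 min was that over MIEN1, and the medium origins that were called were the HRAS start and the upstream FGFR3 site of 0.857.

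**Figure D3:**
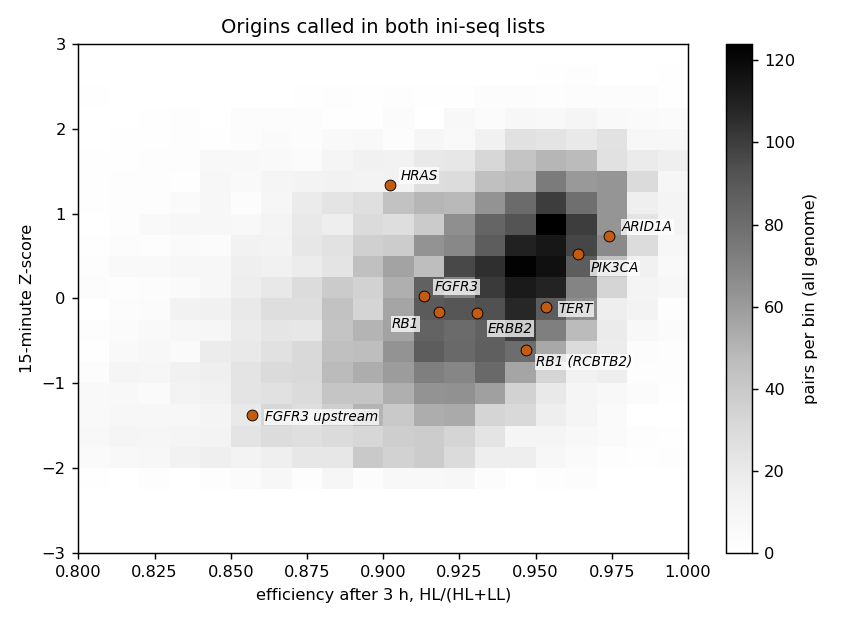
Efficiency after 3 h (horizontal axis) and 15-minute Z-score (vertical axis) of origins called in both lists; grey shading counts the 9597 pairs of the whole genome per bin and the 9 labelled points are the members' pairs. HRAS has the highest Z-score of the members at a medium efficiency, and the upstream FGFR3 origin is lowest on both axes.

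The order at 15 min was not that at 3 h. HRAS, lower in efficiency than every other start origin but TSC1, had the highest Z-score (1.34), followed by ARID1A (0.74), PIK3CA (0.53), FGFR3 (0.03), TERT (-0.11), RB1 (-0.16) and ERBB2 (-0.17). Over the 9 pairs, Spearman's rho between efficiency and Z-score was 0.30 and Pearson's r was 0.45. The same values over all 9597 pairs were 0.38 and 0.36, and the points of each set share the same pair of libraries.

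Origins were longer after 3 h than after 15 min in all 9 pairs, by a median ratio of 1.5, the same as over all 9597 pairs. The ratio ran from 1.125 at PIK3CA and ARID1A to 4.5 at the upstream FGFR3 site. The difference was not always even about the site. At HRAS both calls shared the upstream edge, and the 3-hour origin reached 2200 bp further in the direction of transcription. PIK3CA and ARID1A also kept their upstream edge, with 100 and 300 bp added downstream, whereas at FGFR3 600 bp were added upstream and 300 bp downstream.

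**Figure D4:**
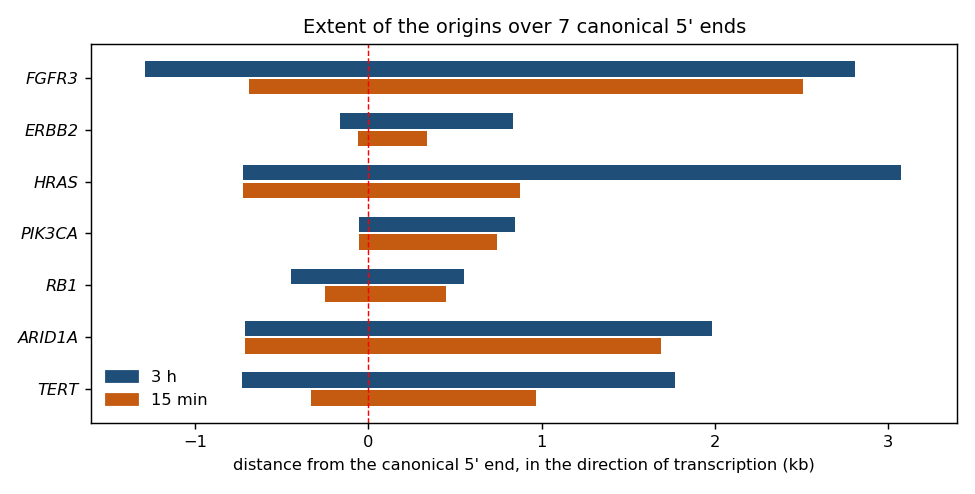
Extent of the 3-hour origin (upper bar) and of the 15-minute origin (lower bar) at the 7 genes where both contain the canonical 5' end, in kb from that end and in the direction of transcription. HRAS, PIK3CA and ARID1A have the same upstream edge at both times.

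CpG content followed efficiency among the members as over the genome. Observed over expected CpG ran from 0.606 to 0.94 in the 8 start origins and from 0.11 to 0.602 in the 10 origins without a canonical start, so these ranges nearly met. In the 4 origins at starts of other genes it ran from 0.586 to 0.847, across both. The CpG island criterion (GC above 50% and a ratio above 0.6) was met by 12 of 22 origins, against 53.7% of all. The 300 bp TERT origin, without a canonical start, met it, and the origin over the start of LRRC56 did not. Spearman's rho between the ratio and efficiency was 0.80 over the 22 origins and 0.72 over all 23905, and for GC content it was 0.74 and 0.77. Median GC content was 67.05% and 67%. The origins lie in 9 genes and share libraries and base composition, so they are not independent points.

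**Figure D5:**
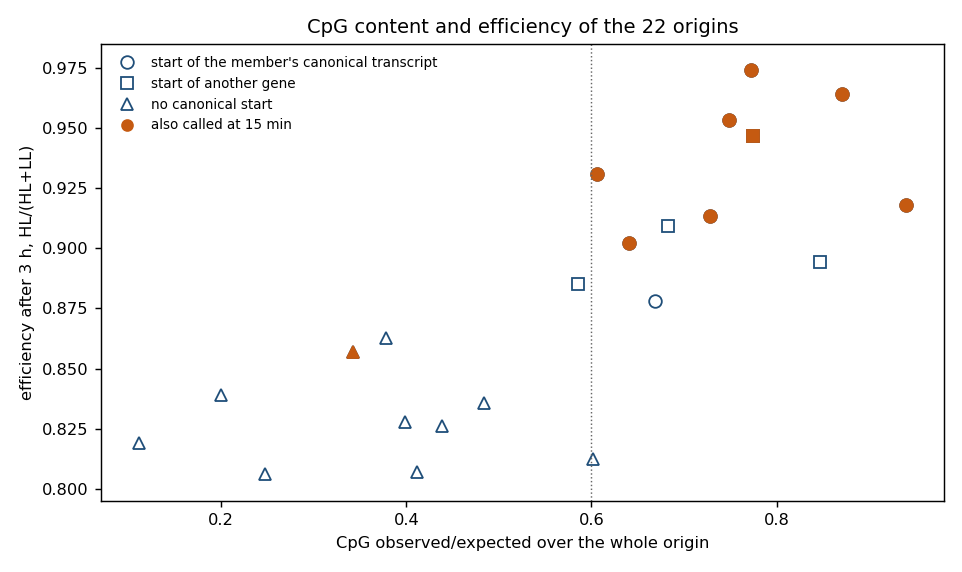
Observed over expected CpG of each of the 22 origins (horizontal axis) and its efficiency after 3 h (vertical axis); marker shape gives the place, filled markers were also called at 15 min, and the dotted line marks a ratio of 0.6. Origins without a canonical start lie at ratios up to 0.602 and efficiencies up to 0.863, and the FGFR3 upstream origin is the only filled marker left of the line.

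G-quadruplex (G4) motifs, searched on both strands as 4 G runs, each 3 bases or longer, joined by loops 1 to 7 bases long, occurred in 19 of 22 origins, against 71% of all 3-hour origins. The 3 without were both RB1 intronic origins and the 300 bp TERT origin, all of the low class. Long origins held the most: the FGFR3 start origin had 19 motifs, the FGFR3 body origin 14 and the HRAS start origin 14. The start origins of ERBB2 and TSC1 had 2 each, that of RB1 had 1, and the CDKN2A origin had 1. Examples from strong and weak sites are given on the strand of the motif, with the G runs in capitals.
PIK3CA (chr3:179148632-179148656, plus strand): GGGtgcggtGGGaatGGGGaccGGG
FGFR3 start (chr4:1793226-1793245, plus strand): GGGGcGGGGccGGGGcGGGG
RB1 start (chr13:48304271-48304288, plus strand): GGGcGGGtGGGGctaGGG
CDKN2A (chr9:21995460-21995487, minus strand): GGGatcaaGGGGagtcGGGGtgtctGGG
FGFR3 body (chr4:1798531-1798553, minus strand): GGGGGccGGGGcGGGGGtGGGGG

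The FGFR3 body motif lies in an origin of 0.826 and the PIK3CA motif in one of 0.964, so a motif was present on both sides of the efficiency range. When only the central 200 bp of each origin was searched, which takes length out of the count, 22.7% of the members' origins and 33.1% of all origins held a motif.

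SNS-seq peaks lay over nearly all of the origins: 21 of 22 had a peak of either fraction, against 91.6% of all 3-hour origins, and 20 of 22 had both, against 77.7%. Besides the ERBB2 intron with none, the short TERT origin had a large-strand peak only. In the other direction, 33 of the members' 100 small-strand peaks lay over a 3-hour origin, against 16.1% of all small-strand peaks, and 19 of 103 large-strand peaks, against 11.9%. The small-strand share leaned on FGFR3, where origins covered 75.5% of the counted region. Of its 14 small-strand peaks, all except that at chr4:1791065-1791501 lay over an origin. The share without FGFR3 was not computed. The members' peaks over an origin were longer than the rest, with medians of 754 against 283 bp in the small strands and of 2850 against 356 bp in the large. Over the whole lists the medians were 956 against 261 bp and 1983 against 311 bp. A longer peak is more likely to share a base with an origin, so these sets were not formed independently of length. Small-strand peaks overlapped a large-strand peak in 75 of 100 cases, against 64% of all, and large-strand peaks a small-strand peak in 46 of 103, against 38.8%.

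GC-rich sequence without an origin was concentrated in TERT. Of the 49 windows of 1 kb within the 9 genes with a GC content above 60%, 32 overlapped a 3-hour origin (65.3%), against 48% of such windows genome-wide. All 14 of FGFR3 and all 5 of HRAS did, but only 5 of the 19 of TERT. Of the 14 remaining TERT windows, 7 had a small-strand and 9 a large-strand SNS-seq peak. The members' share rested on single genes: it was 90% without TERT, from 30 windows, and 51.4% without FGFR3, from 35 windows.

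The surroundings of the genes also differed. FGFR3, ERBB2, HRAS, TSC1, ARID1A and TERT lay in ini-domains, runs of at least 6 origins with gaps of no more than 100 kb, which held 131, 17, 185, 74, 34 and 139 origins. PIK3CA, CDKN2A and RB1 lay outside any. In all, 16 of the 22 origins were in such domains, against 66.7% of all 3-hour origins. Just beyond the counted regions, the nearest upstream 3-hour origin was 1880 bp away at HRAS and 4593 bp at FGFR3, both of the low class, and 441700 bp away at CDKN2A.

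For the 3 genes with an origin over the 5' end of the record that was also called at 15 min, the most similar coding genes were sought by efficiency, Z-score and log2 length, each scaled to its standard deviation over 6152 such genes. FGFR3 was nearest to PPP1R9B (0.18 standard deviations) and ANP32A (0.23), both with origins of 4200 bp. RB1 was nearest to LAP3 (0.09) and FNBP4 (0.13), both of 1000 bp. TERT was nearest to CDK13 (0.23) and ZBTB1 (0.26).

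Other genes altered in bladder carcinoma were counted by the same rule, 39 in all. A 3-hour origin was present at 33 of them, against 69% of protein-coding genes, and a 15-minute origin at 32, against 49.9%. Small-strand and large-strand SNS-seq peaks were present at 38 and 39, against 87.2% and 87%. Receptor, RAS and PI3K genes had a 3-hour origin in 10 of 11 cases and cell cycle genes in 6 of 9, near the 69% of all coding genes. Chromatin genes had one in 7 of 8 cases and transcription factors and others in 10 of 11. The 6 without were NRAS, CDKN2B, ATM, STAG2, KMT2C and TXNIP. Of these, STAG2, a cohesin subunit, and KMT2C, a histone methyltransferase, had a 15-minute origin, as CDKN2A did with no 3-hour origin over it. At the canonical 5' end, 28 of the 39 had a 3-hour origin, against 50.9% of coding genes, and 25 a 15-minute origin, against 34.2%. Of the 28, 19 had one of the high class, which held 58.4% of all origins over a canonical coding start. Across all coding genes, 479 had a 15-minute but no 3-hour origin over the canonical 5' end.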

How the data were processed

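Called intervals from 4 lists of EJ30 cells were analysed: ini-seq 2 after 3 h and 15 min, and both SNS-seq fractions. The authors aligned reads to hg38 with bowtie2, kept unique alignments and removed duplicates. HL and LL reads were counted in 100 bp windows and scaled to the total reads of each library. Windows whose log2 ratio of HL to LL reached 2 were merged across gaps of up to 500 bp, and intervals with HL/(HL + LL) of at least 0.8 were kept. The deposited value at 3 h is this fraction, although its heading calls it a Z-score; at 15 min the deposited value is a score, a Z-score over that list. Of the deposited SNS-seq lists, called by the authors with MACS2, only the positions were used and a further column was not. From these lists 128 and 134 peaks on other sequences were left out. Whether their starts count from 0 or 1 is not given in the sources used here. No list holds counts, so depth per interval is unknown. GC-rich sequence can gain or lose reads at amplification, which was not tested.

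Overlap meant at least 1 shared base. Classes were 3 equal parts of the 3-hour efficiencies, and CpG, G4 and GC values were read from hg38. All 9 members and all 39 other genes were matched by symbol in GENCODE 44, with 1 further gene of that list not reported here; all members are described, the 2 most similar genes are named for FGFR3, RB1 and TERT, and other genes are named where no 3-hour origin was found. The members and lists were chosen with earlier results of these data known. No test was made, since each condition is 1 list; intervals of shares are exact Clopper-Pearson. Interval functions were tested on simulated data, with 200 of 200 queries recovered. Alternatives were other distances, starts, overlaps, motif and window settings. The software was Python 3.11.15 with pandas 2.3.3, scipy 1.17.1, matplotlib 3.10.9 and numpy 2.4.6.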

Additional observations from a re-analysis of the deposited data

How the results depend on the processing

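Of 70 recomputed values for 17 results, 52 stayed within 1.5 times a count or within the interval of a share or median, and 18 moved. With only the 10 kb on either side of the 5' end counted, the members had 14 origins at 3 h, 41 small-strand and 41 large-strand SNS-seq peaks. The canonical start gave 8 genes with a 3-hour and 7 with a 15-minute origin over it, and an interval within 1 kb of the record's 5' end gave 5 genes at 15 min. Allowing 5 kb, 68.2% of the members' origins had a 15-minute origin, against 48.3% of all origins, and 100% had an SNS-seq peak, against 97.6%. In the central 200 bp, 22.7% held a G4 motif, and the central 100 bp had a median GC content of 72%, against 69% for all origins. GC-rich windows overlapped an origin in 48.7% of cases above 55% GC, in 80% above 65%, and in 90% without TERT, a setting chosen after seeing the data. The share of protein-coding genes with a 3-hour origin was 66.4%, 67.4% and 72% at 2, 5 and 20 kb, 64.1% without the gene body and 38.6% over all gene types. Leaving out FGFR3, with 5 origins the gene with most, left the other 9 results it was tried on within these limits, but lowered the share of GC-rich windows with an origin from 65.3% to 51.4%, still inside its interval. No paired analysis was possible because each condition is 1 list and no test was made. Depth limits an absent call: an uncalled site may have been below the calling limits, and what was not called was not shown to be inactive.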
